A study of Mus musculus with 399 samples.

Results

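The genes described here encode the subunits of oxidative phosphorylation. Its 5 protein complexes lie in the inner mitochondrial membrane and together pass electrons from fuel oxidation to oxygen and make ATP. They were chosen by name: genes called Ndufa, Ndufb, Ndufc, Ndufs or Ndufv plus a number (complex I), Sdha to Sdhd (complex II), Uqcr genes and Cyc1 (complex III), Cox4 to Cox8 subunits (complex IV), Atp5 genes (complex V), and the 13 protein-coding genes of the mitochondrial genome. Of 56980 gene identifiers counted in the series, 99 were protein-coding genes of these names and 96 of them passed the low-count filter in at least 1 tissue. These 96 members comprised 83 nuclear genes and 13 mitochondrial genes, 44 in complex I, 4 in complex II, 10 in complex III, 19 in complex IV and 19 in complex V.

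The series measured poly(A) RNA by sequencing in the liver, the gonadal fat pad, the soleus muscle of the leg and the pancreas of 2 inbred mouse strains, TALLYHO/Jng (TH) (an obese strain prone to diabetes) and C57BL/6J (B6). Male and female mice of both strains were weaned at 4 weeks onto chow or a high-fat (HF) diet and sampled at 5 weeks of age, after 1 week of feeding, or at 20 weeks, after 16 weeks. Crossing strain, sex, diet and age gave 16 groups in each tissue and 64 in all, with 5 to 10 mice in each. The 399 libraries came from 226 animals, 74 of which gave liver, fat and soleus, so the tissues are not independent sets of mice.

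Complex I takes electrons from NADH and complex II, which is also the succinate dehydrogenase of the citric acid cycle, takes them from succinate. Complex III passes them to cytochrome c, complex IV hands them to oxygen, and the proton gradient built on the way drives complex V, the ATP synthase. Complex II is made by nuclear genes alone, while the other complexes join nuclear subunits to a few made inside the organelle, and complex IV has subunits with separate muscle and non-muscle isoforms.

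Promoters of 5 genes of the complex IV isoform pairs are shown first because these pairs divided muscle from the other tissues; that of Cox6a2, the partner of Cox6a1, is not shown. The sequences are the 250 bases before the start of each gene, read 5′ to 3′ on the gene's strand, from RefSeq annotation on build GRCm38.p6. They lie at chr5:115348959-115349208 on the minus strand (Cox6a1), chr7:30183921-30184170 on the plus strand (Cox7a1), chr9:79759854-79760103 on the minus strand (Cox7a2), chr19:7217617-7217866 on the minus strand (Cox8a) and chr7:140900447-140900696 on the minus strand (Cox8b). Cox7a1 and Cox8b are the muscle isoforms, and Cox6a1, Cox7a2 and Cox8a the forms of most other tissues. Capitals mark matches on either strand to the core motif of NRF1 and to that of GABPA (CCGGAAG, or CTTCCGG on the other strand), nuclear factors known for binding near respiratory chain genes.
Cox6a1: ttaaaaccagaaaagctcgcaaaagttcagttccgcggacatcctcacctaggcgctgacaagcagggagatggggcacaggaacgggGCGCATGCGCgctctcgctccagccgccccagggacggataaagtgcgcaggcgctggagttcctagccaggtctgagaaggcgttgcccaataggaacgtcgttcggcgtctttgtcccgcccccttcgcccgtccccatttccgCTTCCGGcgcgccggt
Cox7a1: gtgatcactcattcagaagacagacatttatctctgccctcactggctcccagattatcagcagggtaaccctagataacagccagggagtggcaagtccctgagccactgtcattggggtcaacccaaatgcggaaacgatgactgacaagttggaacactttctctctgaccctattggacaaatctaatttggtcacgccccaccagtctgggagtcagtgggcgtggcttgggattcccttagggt
Cox7a2: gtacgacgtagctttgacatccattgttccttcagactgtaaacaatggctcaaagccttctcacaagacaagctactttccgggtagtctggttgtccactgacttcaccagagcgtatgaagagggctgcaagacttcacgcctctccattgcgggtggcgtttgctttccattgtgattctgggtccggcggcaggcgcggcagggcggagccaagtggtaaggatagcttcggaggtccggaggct
Cox8a: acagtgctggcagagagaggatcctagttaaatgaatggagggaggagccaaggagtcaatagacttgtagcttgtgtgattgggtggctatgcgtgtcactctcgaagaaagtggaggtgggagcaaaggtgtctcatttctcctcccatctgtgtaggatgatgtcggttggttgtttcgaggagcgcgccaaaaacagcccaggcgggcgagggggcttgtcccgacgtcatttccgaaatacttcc
Cox8b: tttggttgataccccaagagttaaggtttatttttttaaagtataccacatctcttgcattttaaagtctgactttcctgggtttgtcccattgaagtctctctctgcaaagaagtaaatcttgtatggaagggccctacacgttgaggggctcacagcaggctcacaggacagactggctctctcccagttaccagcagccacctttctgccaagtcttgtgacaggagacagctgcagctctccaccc
Both motifs were found in Cox6a1 and neither in the other 4 sequences.

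Of 85 nuclear symbols of these names, taken before the low-count filter, 68 had a RefSeq promoter. A gene was counted where any of its promoters held the motif. The NRF1 core occurred in 4 of the 68 (5.88%) and in 0.877% of all 27025 genes, and the GABPA core in 12 (17.6%) and in 7.83%. The ERR site AAGGTCA was present in 5 of the 68 (7.35%, against 4.7%) and the YY1 core AAGATGGC in 1 (1.47%, against 1.83%). The E-box CANNTG was present in 63.2% (against 69.3%) and the MEF2 motif in 0 (against 3.42%). These are counts of letters in a fixed window and say nothing about binding.

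Median library depth was 11235896.5 counts for liver, 7773866.5 for fat, 11488613 for soleus and 6559752 for pancreas. The 10 most abundant genes of a library took a median of 64.6% of counts in pancreas, 9.90% in liver, 8.23% in fat and 11.4% in soleus. Markers of each labelled tissue were detected in it: the summed level of 5 hepatocyte markers had a median of 30000 CPM (counts scaled to a common library size) in liver. That of 5 adipocyte markers was 7342 in fat, that of 4 skeletal muscle markers 20163 in soleus and that of 5 acinar markers 64668 in pancreas. Some fat libraries held other tissue: skeletal muscle markers reached 1514 CPM and 8 epididymis markers reached 14411 CPM in single libraries, against medians of 51.2 and 4.63. In soleus the 13 mitochondrial genes and genes of low GC content varied from library to library beyond the study's groups, which bears on every soleus result and is taken up with them. In bulk tissue, fewer cells of a type and less RNA per cell cannot be told apart.

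Soleus had the highest transcript levels of the nuclear subunits. Levels across genes and tissues are given as the authors' deposited FPKM, which scale with transcript length. The median nuclear member stood at a median of 150 FPKM in soleus, 37.5 in liver, 26.3 in fat and 25.6 in pancreas. For 38 of the 83 nuclear members every soleus library lay above every library of the other 3 tissues, as did 4.07% of the 21432 genes counted, whereas no member stood apart in this way in liver, fat or pancreas (backgrounds of 3.76%, 0.457% and 1.44%). No member had every library of a tissue below those of the others, against 0.602% of genes for liver, 0.042% for fat, 0.569% for soleus and 0.383% for pancreas. The 38 included Atp5a1 and Atp5b of the ATP synthase, and Sdhb and Sdhc of complex II. Also among them were the core proteins Uqcrc1 and Uqcrc2 and cytochrome c1 (Cyc1) of complex III.

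The 13 mitochondrial genes did not follow this order, and none of them had soleus libraries that all exceeded the other tissues. The ratio of soleus to liver FPKM had a median of 3.90 over the nuclear members and 0.52 over the mitochondrial ones. Against fat these ratios were 5.73 and 0.83, and against pancreas 6.09 and 0.63. Within the mitochondrial genes the ratio of soleus to liver ran from 0.0712 to 1.39. mt-Co1, the catalytic subunit of complex IV, had a median of 8890 FPKM in soleus against 8389 in liver. mt-Atp8, a short subunit of complex V, had 374 in soleus against 5254 in liver. The other mitochondrial member of complex V, mt-Atp6, was less far apart, at 3388 against 8957, so the mt-Atp8 value does not stand for the complex. The plot of levels by tissue shows both patterns.

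**Figure D1:**
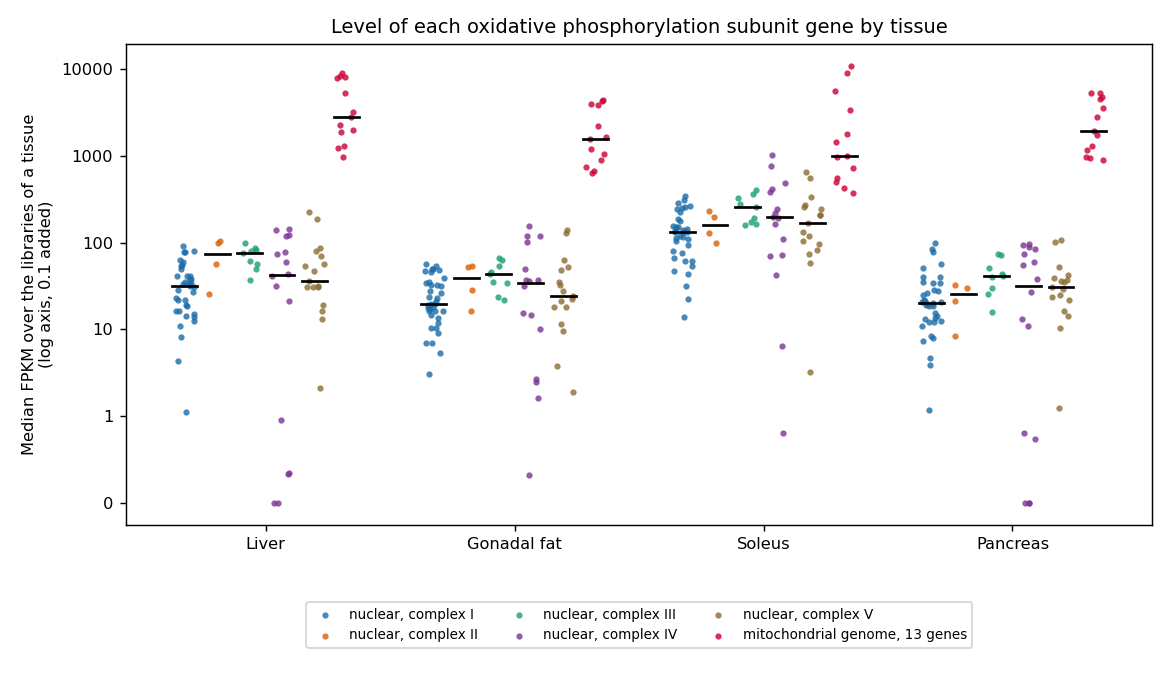
Median deposited FPKM of each member in each tissue, on a log axis with 0.1 added, 1 point per gene, nuclear and mitochondrial members in columns by complex, with bars at the column medians. Nuclear members lie higher in soleus (median 150 FPKM) than in liver, fat and pancreas (37.5, 26.3 and 25.6), and the mitochondrial members do not.

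Complex IV held the members with the steepest tissue pattern. Cox6a2, the heart and muscle form of subunit 6a, had a median of 1013 FPKM in soleus, the highest of all nuclear members there, and 0, 0.11 and 0.54 FPKM in liver, fat and pancreas. Cox6a1 went the other way, with 42.2 FPKM in soleus against 140 in liver, 120 in fat and 94.2 in pancreas. Cox8b had 754 FPKM in soleus, 9.88 in fat and 0 in liver and pancreas, and Cox7a1 had 382 in soleus, 2.40 in fat, 0.80 in liver and 0 in pancreas. The widely expressed Cox7a2 was also highest in soleus (192 FPKM against 49.2 to 74.4 elsewhere), but Cox8a was lowest there (69.6 FPKM against 88.1 to 154).

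Expressed as a share of each pair, Cox6a2 made up 93.8% to 97.6% of Cox6a FPKM across the 97 soleus libraries (median 96%). Cox8b made up 87.8% to 93.6% (median 91.9%) and Cox7a1 55.3% to 73.8% (median 67.3%). In raw counts, which are not corrected for length, the Cox8b and Cox7a1 medians were 86.8% and 53.8%. Fat was intermediate and spread widely, with Cox8b at 0.675% to 39% (median 7.10%) and Cox7a1 at 1.29% to 39.7% (median 4.72%).

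**Figure D2:**
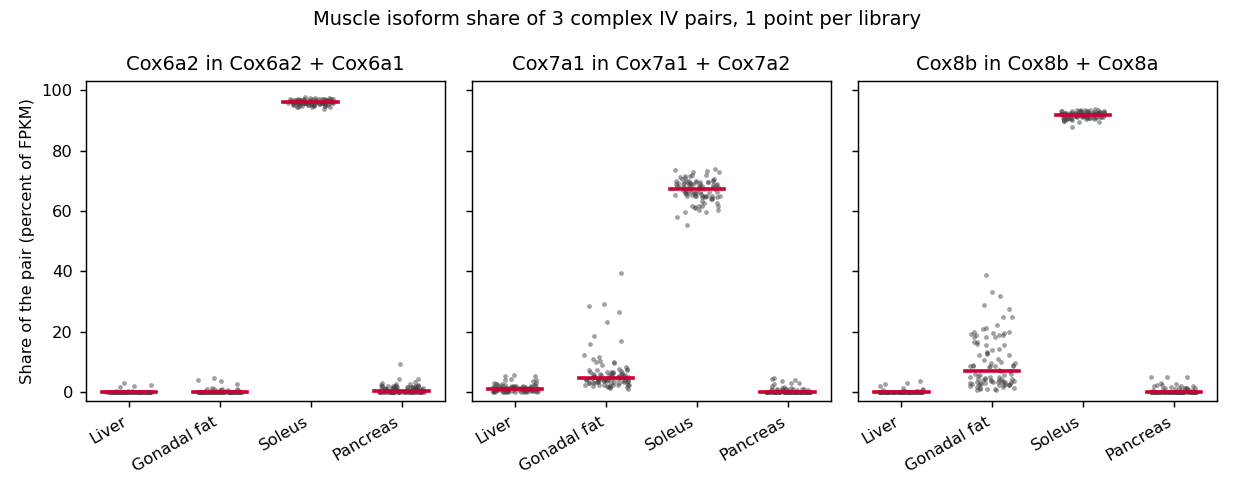
Share of the muscle isoform in the Cox6a, Cox7a and Cox8 pairs, in percent of the pair's deposited FPKM, 1 point per library by tissue, with a bar at the median. Soleus libraries sit at 93.8% to 97.6% for Cox6a2, 87.8% to 93.6% for Cox8b and 55.3% to 73.8% for Cox7a1, and fat libraries spread between 0.675% and 39% for Cox8b.

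Other isoform sets were less divided. Cox4i1, the common form of the Cox4 subunit, had 410 FPKM in soleus and 84.7 to 118 elsewhere, while its oxygen-regulated counterpart Cox4i2 stayed at 6.28 FPKM or below in every tissue. Cox6b1 had 491 FPKM in soleus and Cox6b2, known as a testis form, 0.53. Ndufa4, which carries a complex I name but is found in complex IV, had 243.98 FPKM in soleus and its relative Ndufa4l2 13.8. Both are placed by name under complex I in every count and figure by complex. Of the 3 genes for the c-ring of ATP synthase, which encode the same mature protein, Atp5g3 took the largest share of their summed FPKM in liver (median 63.2%), fat (65.5%) and soleus (52.3%), and 48.1% in pancreas.

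Members at the bottom of the range were few. Cox7b2 and Cox8c, isoforms known from testis, had 174 and 293 counts over all 399 libraries and did not pass the filter, nor did a second identifier named Atp5o, with 0 counts. Cox6b2, which passed it in fat and soleus, had the fewest counts of those inside it (4485 counts in 314 libraries). In all, 12 copies annotated as pseudogenes or non-coding were left out, and reads may have been split between them and their parents: Atp5l2-ps held 294054 counts, Ndufb4c 274181, Ndufb1-ps 227449 and Atp5l-ps1 152657. The nuclear members are spread over 19 chromosomes, 3 of them on the X (Ndufa1, Ndufb11 and Cox7b).

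Among tissues, replicate spread was smallest in liver. The within-group SD of log2 CPM had a median of 0.14 over nuclear members in liver, 0.20 in pancreas, 0.30 in soleus and 0.34 in fat. Over the mitochondrial genes it was 0.15 in liver, 0.19 in pancreas, 0.38 in fat and 0.81 in soleus, so that differences in mitochondrial transcripts had to be larger in soleus to be called. In all comparisons below, a change is a log2 fold change ± standard error from edgeR's quasi-likelihood test, and a member counts as called where its p, adjusted by Benjamini-Hochberg over all genes of the tissue, fell below 0.05.

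Strain on chow, TH against B6, was compared at each age over both sexes. In liver the members were lower in TH or not called, and none was higher. At 20 weeks 24 of 79 nuclear and 12 of 13 mitochondrial members were lower in TH (21% of all 17243 genes were called lower and 42.2% were called), with medians of -0.06 and -0.42 against one close to 0 for all genes. At 5 weeks, in other mice, 39 nuclear and 12 mitochondrial members were lower (20.1% lower and 38.8% called), with medians of -0.14 and -0.37.

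The clearest single member in liver was Sdhc, a membrane anchor of complex II. At 20 weeks its level ranged from 66.9 to 95.9 CPM (median 79.4) in the 12 TH mice and from 110 to 149 (median 120) in the 12 B6 mice, so the strains did not overlap (as for 3 of 92 members and 3.98% of all genes at this age). The change was -0.61 ± 0.04 (edgeR adjusted p = 3.89e-23). At 5 weeks TH ranged from 73.9 to 89.9 CPM (median 83.3) and B6 from 115 to 155 (median 131), again without overlap, and the change was -0.65 ± 0.04 (edgeR adjusted p = 5.26e-25). The other subunits of complex II differed less: at 20 weeks Sdha, the flavoprotein, fell by 0.15 ± 0.05, Sdhd, the other anchor, fell by 0.12 ± 0.04, and Sdhb, the iron-sulphur subunit, had a change of -0.01 ± 0.06 that was not called.

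Among complex I members in liver, Ndufa6 ranged from 60.1 to 74.5 CPM in TH and from 81.6 to 147 in B6 at 20 weeks, without overlap (-0.47 ± 0.06). Ndufc2 ranged from 20.9 to 30.3 CPM in TH and from 30.2 to 54.8 in B6 (-0.50 ± 0.06), a near separation that became complete at 5 weeks (21.2 to 34.1 against 39.3 to 55.3 CPM, -0.63 ± 0.06). Both are accessory subunits, which surround the catalytic core. In complex IV, Cox7c ranged from 60.6 to 77.7 CPM in TH and from 80.5 to 142 in B6 at 20 weeks (-0.38 ± 0.06). At 5 weeks 8 of 92 members (8.7%, against 5.83% of all genes) had strains that did not overlap: mt-Nd3, Ndufa6, Ndufa7, Ndufc2, Sdhc, Uqcrc2, Cox7c and Atp5j2.

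The mitochondrial genes of liver were lower in TH as a group, except mt-Nd1 (-0.12 ± 0.06, edgeR adjusted p = 0.112 at 20 weeks), which was called at neither age. mt-Nd3, a small membrane subunit of complex I, was the furthest apart, at 340 to 476 CPM (median 405) in TH and 474 to 908 (median 609) in B6 at 20 weeks (-0.63 ± 0.08, edgeR adjusted p = 3.79e-11), and the ranges overlapped only at their margin. mt-Co1 differed by less, at 10934 to 18079 CPM (median 15860) in TH against 12892 to 19812 (median 17758) in B6 (-0.15 ± 0.06). Summed over the 13 genes, the share of counts in liver was 4.29% to 5.39% in TH (median 4.91%) and 5.41% to 7.55% in B6 (median 6.04%) at 20 weeks, and 4.57% to 5.85% (median 5.27%) against 5.87% to 7.26% (median 6.46%) at 5 weeks.

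Because different mice were sampled at 5 and 20 weeks, the ages can be set against each other. In liver 22 nuclear and 12 mitochondrial members were lower in TH at both ages (14.4% of all genes were), which is 56.4% of the nuclear calls at 5 weeks and 91.7% of those at 20 weeks. In pancreas 12 nuclear and 12 mitochondrial members were lower at both (6.91% of genes), the nuclear ones being 42.9% of the calls at 5 weeks and 70.6% of those at 20 weeks. The count in fat was 6 nuclear and 0 mitochondrial members (6.76% of genes), which is 85.7% of the nuclear calls at 5 weeks and 30% of those at 20 weeks. In soleus Ndufa12 and Sdha were lower at both (6.1% of genes), all of the calls at 5 weeks and 2.78% of those at 20 weeks. Among all genes lower at 5 weeks, 71.8% were lower at both ages in liver, 53.5% in pancreas, 54.8% in fat and 69.2% in soleus. Among those lower at 20 weeks, the shares were 68.7%, 49.1%, 50.6% and 28% in the same order. The 6 in fat were Atp5j2, Cox7a2l, Cox7c, Ndufa12, Ndufc2 and Sdhc.

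In pancreas most called members were lower in TH. At 20 weeks 17 of 77 nuclear and 12 of 13 mitochondrial members were lower in TH and 2 nuclear members were higher (27.1% of 13367 genes were called, 14.1% lower and 13.1% higher), with medians of -0.06 and -0.38. At 5 weeks 28 nuclear and all 13 mitochondrial members were lower and 2 nuclear members higher (26% called, 12.9% lower and 13.1% higher), with medians of -0.15 and -0.52. At 5 weeks the strains did not overlap for 8 of the 13 mitochondrial genes, nor for Uqcrh, the hinge protein of complex III, and Atp5j2, a membrane subunit of the ATP synthase (10 of 90 members in all, or 11.1%, against 2.44% of all genes).

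In pancreas at 5 weeks mt-Nd3 ranged from 71.5 to 112 CPM (median 96.8) in 13 TH mice and from 127 to 176 (median 153) in 12 B6 mice (-0.67 ± 0.09). Atp5j2 ranged from 11.6 to 19.2 CPM (median 16.6) against 22.9 to 31.8 (median 24.8), a change of -0.67 ± 0.07 (edgeR adjusted p = 3.17e-13). At 20 weeks Atp5j2 changed by -0.56 ± 0.07, with a small overlap. In complex II, Sdhb was lower in TH, by -0.40 ± 0.06 at 20 weeks and -0.49 ± 0.07 at 5 weeks, and so was Sdha (-0.28 ± 0.05 and -0.34 ± 0.05), while Sdhc (-0.15 ± 0.08 and -0.08 ± 0.08) and Sdhd (-0.17 ± 0.07 and -0.08 ± 0.08) were not called.

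In fat the strain difference was seen mainly at 20 weeks. There 20 of 83 nuclear and 9 of 13 mitochondrial members were lower in TH and 1 nuclear member was higher (25.6% of 19715 genes were called, 13.4% lower and 12.3% higher), with medians of -0.23 and -0.44 against -0.04 for all genes. At 5 weeks 7 nuclear members were lower, 1 was higher and no mitochondrial gene was called (21.3% called, 12.3% lower and 9.01% higher), with medians of -0.02 and 0.09. Whether the difference between strains itself changed with age was not tested.

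At 20 weeks in fat Sdhc ranged from 65.3 to 102.2 CPM (median 80.3) in TH and from 86.9 to 161 (median 128) in B6 (-0.62 ± 0.11, edgeR adjusted p = 8.2e-06), with overlapping strains, as for every member in this tissue (2.44% of all genes did not overlap at this age). Sdha changed by -0.51 ± 0.12, mt-Nd3 by -0.81 ± 0.17, Atp5j2 by -0.71 ± 0.17 and Ndufa12, an accessory subunit of complex I, by -0.65 ± 0.15. The markers of other cells moved with strain too: the summed level of 7 macrophage markers was 1856 to 5357 CPM in TH males and 536 to 1235 in B6 males, and 711 to 1403 in TH females and 173 to 979 in B6 females. The adipocyte markers had medians of 9457 against 8191 CPM in males and 9427 against 6683 in females, and the part of either in the result was not tested. With 6 deviating libraries of male fat left out, replicate 4 of the B6 males on chow at 20 weeks among them, 47 members were called in place of 30.

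Cox7a1 was the member that was higher in TH fat. It ranged from 0.741 to 10.7 CPM (median 2.36) in TH and from 0.484 to 2.40 (median 1.28) in B6, a change of 1.02 ± 0.39 (edgeR adjusted p = 0.0438); the value of 10.7 CPM came from 1 TH male, and the strains overlapped. The call was lost without the low-count filter (adjusted p = 0.074) and with the epididymis, ovary and uterus marker scores as covariates (0.071). Ucp1, the uncoupling protein that defines brown fat, was also higher in TH fat at 20 weeks (3.38 ± 1.06), and its part in the Cox7a1 value was not tested.

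Soleus had the largest number of members called between strains. At 20 weeks 72 of 83 nuclear members were lower in TH and none was higher, while none of the 13 mitochondrial genes was called (48.8% of 17520 genes were called, 21.8% lower). The medians were -0.48 for the nuclear members, 0.21 for the mitochondrial ones and 0.03 for all genes. All complexes took part, with 30 of 37 nuclear members of complex I, 4 of 4 of complex II, 8 of 9 of complex III, 15 of 16 of complex IV and 15 of 17 of complex V lower in TH.

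Ndufa12 in soleus ranged from 84.2 to 150 CPM (median 101) in 12 TH mice and from 156 to 252 (median 205) in 12 B6 mice, without overlap (-0.94 ± 0.12, edgeR adjusted p = 2.07e-10). Ndufc2 ranged from 65.9 to 94.8 CPM (median 75.9) against 113 to 166 (median 138), also without overlap (-0.82 ± 0.11). Sdhd was the other member whose strains did not overlap (3 of 96 members in all, or 3.12%, against 4.18% of all genes), at 267 to 348 CPM (median 292) in TH and 368 to 460 (median 408) in B6 (-0.47 ± 0.08). Of the rest, Atp5j2 changed by -0.87 ± 0.14 and Ndufa3 by -0.69 ± 0.15.

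Both muscle and non-muscle isoforms of complex IV were lower in TH soleus at 20 weeks. Cox7a1 ranged from 139 to 276 CPM (median 171) in TH and from 217.9 to 401 (median 308) in B6 (-0.85 ± 0.14, edgeR adjusted p = 4.65e-07), and its partner Cox7a2 changed by -0.48 ± 0.11. Cox6a2 ranged from 630 to 1183 CPM (median 761) against 704 to 1310 (median 1101), a change of -0.42 ± 0.13, and Cox6a1 changed by -0.37 ± 0.15. Cox8b changed by -0.39 ± 0.15 and Cox8a by -0.38 ± 0.14. The Cox7a1 share of the pair was 59.7% to 61.8% in TH females and 64.8% to 68.3% in B6 females. In males it was 61.2% to 67.5% in TH against 69.1% to 71.5% in B6. At 20 weeks on chow the strains thus overlapped over both sexes, though not within either sex. A share of a pair has no matching background over all genes.

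Fibre-type markers moved with strain in the same libraries. The summed level of 8 fast-fibre markers was 15695 to 23405 CPM (median 20298) in TH and 18630 to 39105 (median 29863) in B6, and that of 6 slow-fibre markers 31135 to 40030 (median 35541) against 18939 to 41236 (median 30049). Adipocyte markers were 20.7 to 101.7 CPM (median 45.9) in TH and 6.3 to 54.5 (median 18.1) in B6. The part of these in the subunit result was not tested.

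The soleus libraries also differed by the GC content of the genes they detected, and this trend limits every soleus result here. For each library, the deviation of log2 CPM from each gene's mean over the tissue was regressed on GC content, per 10 percentage points. This slope ran from -0.817 to 1.07 in soleus but only from -0.223 to 0.184 in liver. The mitochondrial members have low GC content (31.9% to 41.1%, median 37.1%) and the nuclear members span 37% to 63.3% (median 50.4%). In the 10 soleus libraries with the lowest slopes, drawn from 7 groups, the 13 mitochondrial genes took 6.62% to 13.4% of counts (median 9.23%), and in the 10 with the highest slopes 1.37% to 4.61% (median 2.38%). The nuclear members took medians of 2.66% and 4.20% in the same libraries.

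At 20 weeks on chow the strain difference of all soleus genes ran from a median of 0.82 for genes under 40% GC to -0.19 for those of 60% GC and over, and the members ran from 0.13 to -0.42 over the same classes. In each of the 6 classes the members' median was below that of the genes around them. With the GC slope as a covariate, 54 nuclear and 12 mitochondrial members were lower in TH and none was higher, at medians of -0.24 and -0.62, while 29.4% of all genes were called. Under that fit Ndufa12 changed by -0.70 ± 0.08, Ndufc2 by -0.67 ± 0.09, Cox7a1 by -0.60 ± 0.10 and Atp5j2 by -0.59 ± 0.10. The nuclear call thus kept its direction at a smaller size, and the mitochondrial genes went from a positive median with no call to 12 lower.

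**Figure D3:**
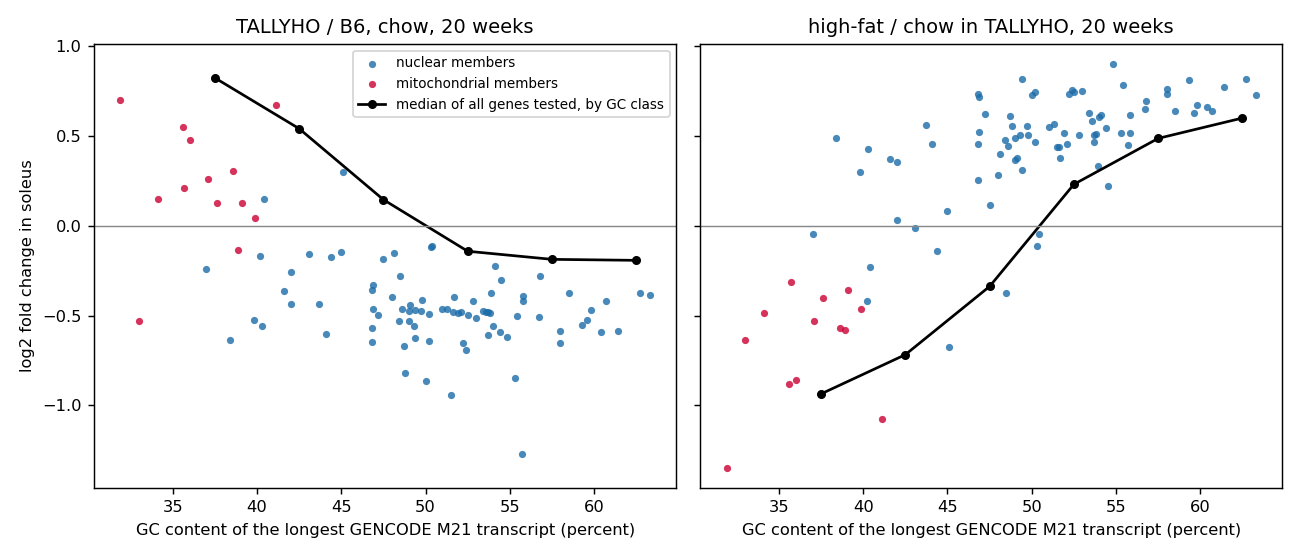
Log2 fold change of each member in soleus (points, nuclear and mitochondrial) against the GC content of its gene in percent, for TH against B6 on chow and for HF against chow in TH, both at 20 weeks and without a covariate; the line joins the medians of all genes tested by GC class, its outer classes drawn at 37.5% and 62.5%. The line runs from 0.82 to -0.19 for strain and from -0.94 to 0.60 for diet, and most nuclear members lie below it for strain and above it for diet.

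At 5 weeks only Ndufa12 and Sdha were lower in TH soleus and nothing was higher (16.6% of genes called, 8.81% lower), with medians of -0.03 for the nuclear and -0.45 for the mitochondrial members. Ndufa12 ranged from 101.6 to 200 CPM (median 112) in 11 TH mice and from 159 to 232 (median 185) in 12 B6 mice (-0.52 ± 0.12). Sdha ranged from 390 to 701 CPM (median 530) against 422 to 778 (median 683), a change of -0.37 ± 0.10. Without replicate 1 of the 5 TH males on chow 5 members were called and without replicate 2 of them 4, and with the GC slope as a covariate 10 nuclear and 7 mitochondrial members were, 1 of them higher.

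Across tissues and ages, 8 of the 90 members tested throughout were lower in TH in 6 or more of the 8 comparisons (8.89%, against 3.56% of 12485 genes), a rule chosen after the values were seen. Atp5j2, Cox7a2l, Ndufc2 and Sdha were lower in 7 of 8 and Cox7c, Ndufa12, Ndufa7 and Uqcrh in 6. Cox7a2l, which helps to join complexes III and IV, was not called in soleus at 5 weeks (-0.03 ± 0.11). Sdhc was below 0 in all 8, from -0.67 to -0.08, and was called in 5. The TH reads were mapped to the B6 reference, and the effect of sequence differences on single genes was not tested.

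**Figure D4:**
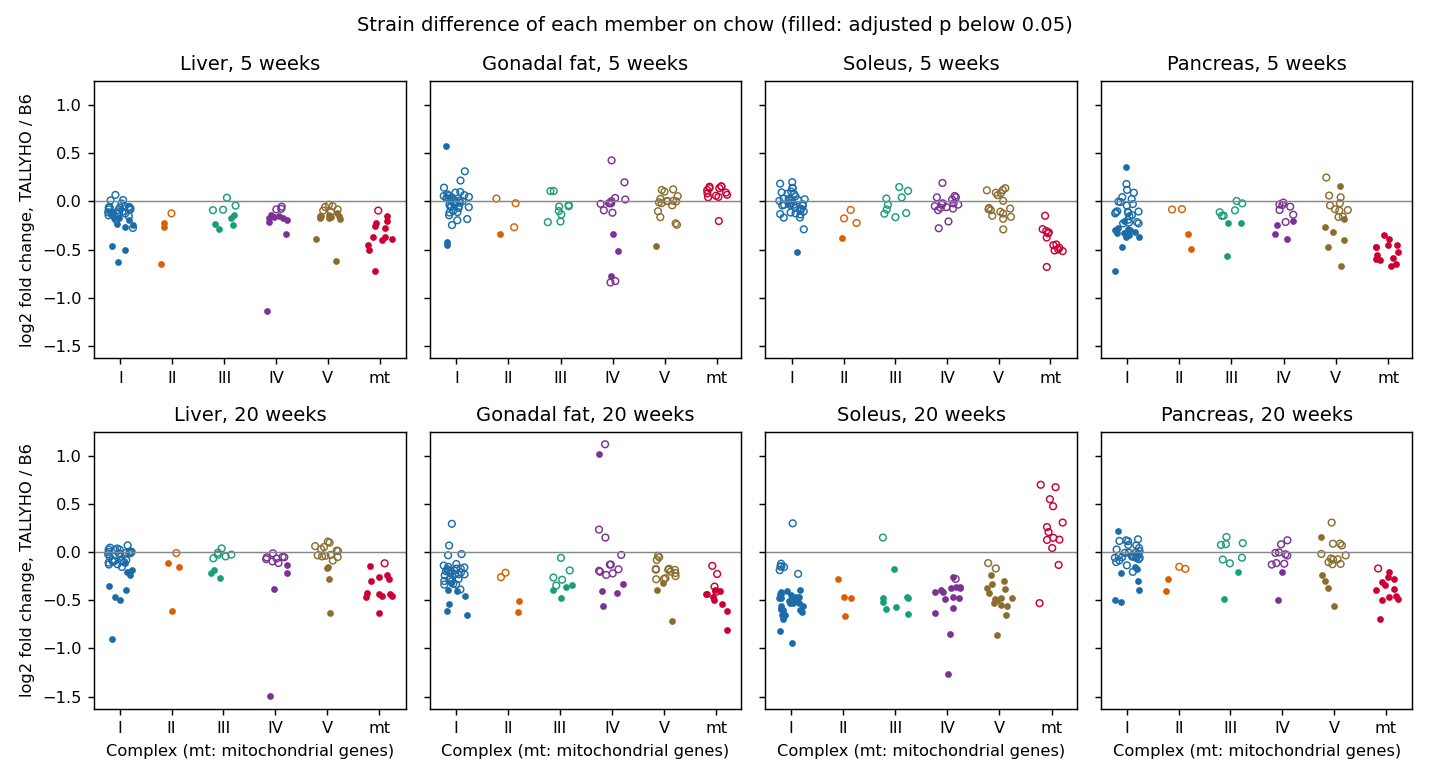
Log2 fold change of TH against B6 on chow, 1 point per member, with nuclear members by complex and the mitochondrial genes in a column of their own, in each tissue and at each age; filled points were called. Soleus at 20 weeks lies lowest for the nuclear members (median -0.48), and the mitochondrial members of liver and pancreas lie below 0 at both ages.

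The genes that build and control the complexes were taken as fixed lists. Over all genes 48.8% were called between strains at 20 weeks in soleus (21.8% lower) and 42.2% in liver (21% lower). The share was 25.6% in fat (13.4% lower and 12.3% higher) and 27.1% in pancreas (14.1% lower and 13.1% higher). In soleus 4728 of 17520 genes were called higher, and in liver 3649 of 17243. In soleus at 20 weeks 59 of 78 mitochondrial ribosome genes were lower in TH and 2 were higher (median -0.38), along with 8 of 14 complex I, 3 of 4 complex II, 4 of 6 complex III, 8 of 17 complex IV and 2 of 3 complex V assembly factors, 1 complex IV factor being higher. Of the electron and acyl carriers 7 of 13 were lower and 1 was higher, of the genes that express mitochondrial DNA 3 of 11 were lower and 2 higher, and of 7 regulators 1 was lower and 2 higher. In liver 13 of 77 mitochondrial ribosome genes were higher and 9 lower (median 0.05), and in complex IV assembly 6 of 17 were higher and 0 lower. In fat 19 of 77 mitochondrial ribosome genes were lower and 3 higher (median -0.15), and in pancreas 9 of 76 were lower and 3 higher (median -0.06).

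Single regulators differed between strains as well. Ppargc1a, a coactivator known for driving mitochondrial gene expression, was lower in TH liver (-0.91 ± 0.16 at 20 weeks and -0.96 ± 0.15 at 5 weeks), fat (-1.13 ± 0.21 and -0.87 ± 0.21) and 5-week pancreas (-0.85 ± 0.23). In soleus at 20 weeks the nuclear receptor Esrra was lower in TH (-0.70 ± 0.12) and the GABP subunit Gabpa higher (1.13 ± 0.30). The GC trend of soleus limits these values and the soleus counts of the lists above. Ucp2, an uncoupling protein relative found in many cell types, was higher in TH fat (1.95 ± 0.15) and soleus (1.03 ± 0.16) and lower in TH liver (-0.44 ± 0.12) at 20 weeks.

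Diet was compared at 20 weeks within each strain, HF against chow, and at 5 weeks over both strains. The 20-week comparisons share their chow mice with the strain, sex and age comparisons. In liver most members called for diet were lower on HF. In B6 41 of 79 nuclear and 5 mitochondrial members were lower and none was higher (23.4% of genes called, 11.6% lower), with medians of -0.15 for both, although with only the groups compared in the fit 28 members in all were called. In TH 25 nuclear and 6 mitochondrial members were lower and 1 nuclear member higher (26.1% called, 12.6% lower and 13.6% higher), with medians of -0.12 and -0.15. After 1 week of feeding 33 nuclear and 9 mitochondrial members were already lower and 1 was higher (23.1% called, 12.4% lower and 10.7% higher), with medians of -0.10 and -0.17.

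The changes in liver were small. In B6 the largest called falls included Ndufs7, a core iron-sulphur subunit of complex I, at 20.8 to 42.1 CPM (median 33.3) on HF and 32.4 to 78.7 (median 38.7) on chow (-0.33 ± 0.08). In TH the Rieske protein Uqcrfs1 of complex III ranged from 107 to 124 CPM (median 117) on HF and from 128 to 153 (median 137) on chow, the only one of 92 members whose diets did not overlap, against 0.487% of all genes (-0.25 ± 0.04, edgeR adjusted p = 5.77e-06). mt-Co1 ranged from 9701 to 15393 CPM (median 11907) on HF and from 10934 to 18079 (median 15860) on chow in TH (-0.31 ± 0.06).

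Ndufa8, an accessory subunit of complex I, was the liver member called higher on HF. In TH liver it ranged from 50.4 to 78.5 CPM (median 63.6) on HF and from 41.3 to 65 (median 47.2) on chow (0.42 ± 0.07, edgeR adjusted p = 5.16e-07), and it was also higher at 5 weeks (0.14 ± 0.05). In B6 it had a change of 0.11 ± 0.07 that was not called. It was the 1 liver member whose diet response differed between strains (0.31 ± 0.09, edgeR adjusted p = 0.0441, with 3.89% of genes called, 2.03% higher), and no member was called for this without the low-count filter, with the GC slope or with only the groups compared.

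In fat almost nothing was called for diet. In B6 Cox7a1 was higher on HF (1.40 ± 0.39, edgeR adjusted p = 0.036, with 2.34% of genes called, 1.35% higher), at 1.12 to 14.1 CPM (median 2.80) against 0.484 to 2.40 (median 1.28). The call was lost without the filter, without the deviating libraries and with the neighbouring tissue scores. In TH and at 5 weeks edgeR called 0 members (0.152% and 0.0609% of genes called), with 0 and 4 at an unadjusted p under 0.05, and for the difference in diet response between strains also 0 (0.152% called, 13 unadjusted).

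Cox7a1 and Cox8b in fat reached their highest values in 5-week TH females on HF, where Cox7a1 ranged from 3.58 to 39.8 CPM (median 22.2) and Cox8b from 15.8 to 84 (median 56.2). Ucp1 ranged from 14.9 to 656 CPM (median 460) in these mice. Cox6a2 peaked elsewhere, at 10.7 CPM in a 5-week B6 female on chow, a group in which Ckm, the muscle creatine kinase, reached 184 CPM. The part of brown fat or muscle in these levels was not tested.

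In soleus the diet response was seen in TH. In B6 edgeR called 0 members (0.114% of genes called, 2 members at an unadjusted p under 0.05), with medians of -0.13 for the nuclear and 0.43 for the mitochondrial members. In TH 70 of 83 nuclear members were higher on HF and 4 lower, and 6 of 13 mitochondrial members were lower (67.7% of genes called, 32.7% higher and 35% lower), with medians of 0.51 and -0.57. The difference in diet response between strains was called for 74 nuclear members, 70 of them in the higher direction, and for 8 mitochondrial ones, all in the lower (63.4% of genes called, 29.9% higher and 33.4% lower).

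For example, Ndufs8, a core iron-sulphur subunit of complex I, ranged from 158 to 596 CPM (median 314) on HF and from 131 to 270 (median 164) on chow in TH (0.90 ± 0.15), with overlap. Cox7a1 ranged from 148 to 455 CPM (median 247.04) against 139 to 276 (median 171), a change of 0.52 ± 0.14. Ndufs1 and Sdha were among the 4 lower members, at -0.67 ± 0.15 and -0.38 ± 0.10. mt-Nd4 ranged from 724 to 3482 CPM (median 1371) on HF and from 749 to 5788 (median 2017) on chow (-0.88 ± 0.39).

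These values moved with GC content. In TH soleus the diet change of all genes ran from a median of -0.94 under 40% GC to 0.60 at 60% GC and over, and the members ran from -0.48 to 0.73. The GC slopes were -0.578 to 1.07 (median 0.430) on HF and -0.817 to 0.522 (median -0.215) on chow in TH, and -0.368 to 0.443 (median 0.152) in B6 on chow. With the slope as a covariate 22 nuclear and 11 mitochondrial members were higher on HF and none was lower, at medians of 0.16 and 0.73, with 19.2% of all genes called. The mitochondrial genes thus changed sign, and 9 members in place of 82 were called for the difference between strains. Ndufs8 stayed higher in TH on HF (0.36 ± 0.09) and in the difference between strains (0.41 ± 0.13). As the slope differs between the groups themselves, it and the diet cannot be fully told apart.

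At 5 weeks Uqcrc2, a core protein of complex III, was the 1 soleus member called for diet (0.20 ± 0.04, edgeR adjusted p = 0.00389, with 2.07% of genes called, 1.7% higher). It ranged from 401 to 709 CPM (median 562) in 26 mice on HF and from 364 to 573 (median 500) in 23 on chow. Without replicate 1 of the 5 TH males on chow 3 members were called.

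In pancreas few members responded to diet. In B6 Uqcr10 was lower on HF (-0.32, with 1.58% of genes called, 0.741% lower), a call lost without the filter and with only the groups compared. In TH 5 nuclear members were lower, 1 nuclear member was higher and 1 mitochondrial member was higher (5.73% called, 3.42% lower and 2.31% higher), but the GC slope left 2 calls and a fit of only the groups compared 4. Sdhb was among them, at 15.3 to 30.03 CPM (median 18.8) in 13 mice on HF and 18.8 to 30.3 (median 23.9) in 18 on chow (-0.33 ± 0.07, edgeR adjusted p = 0.00108). Atp5mpl, a small ATP synthase subunit, was higher (0.33 ± 0.10) and so was mt-Co3 (0.23 ± 0.07). At 5 weeks 7 nuclear members were lower (6.03% called, 3.44% lower), or 2 without the filter, among them Uqcrq (-0.23) and Atp5g1 (-0.20). The diet response differed between strains for Atp5mpl (0.55 ± 0.13) and Ndufa4 (0.34 ± 0.09), with 1.32% of genes called, 0.643% higher. Neither was called with only the groups compared, and Ndufa4 was not called without the filter or with the GC slope.

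**Figure D5:**
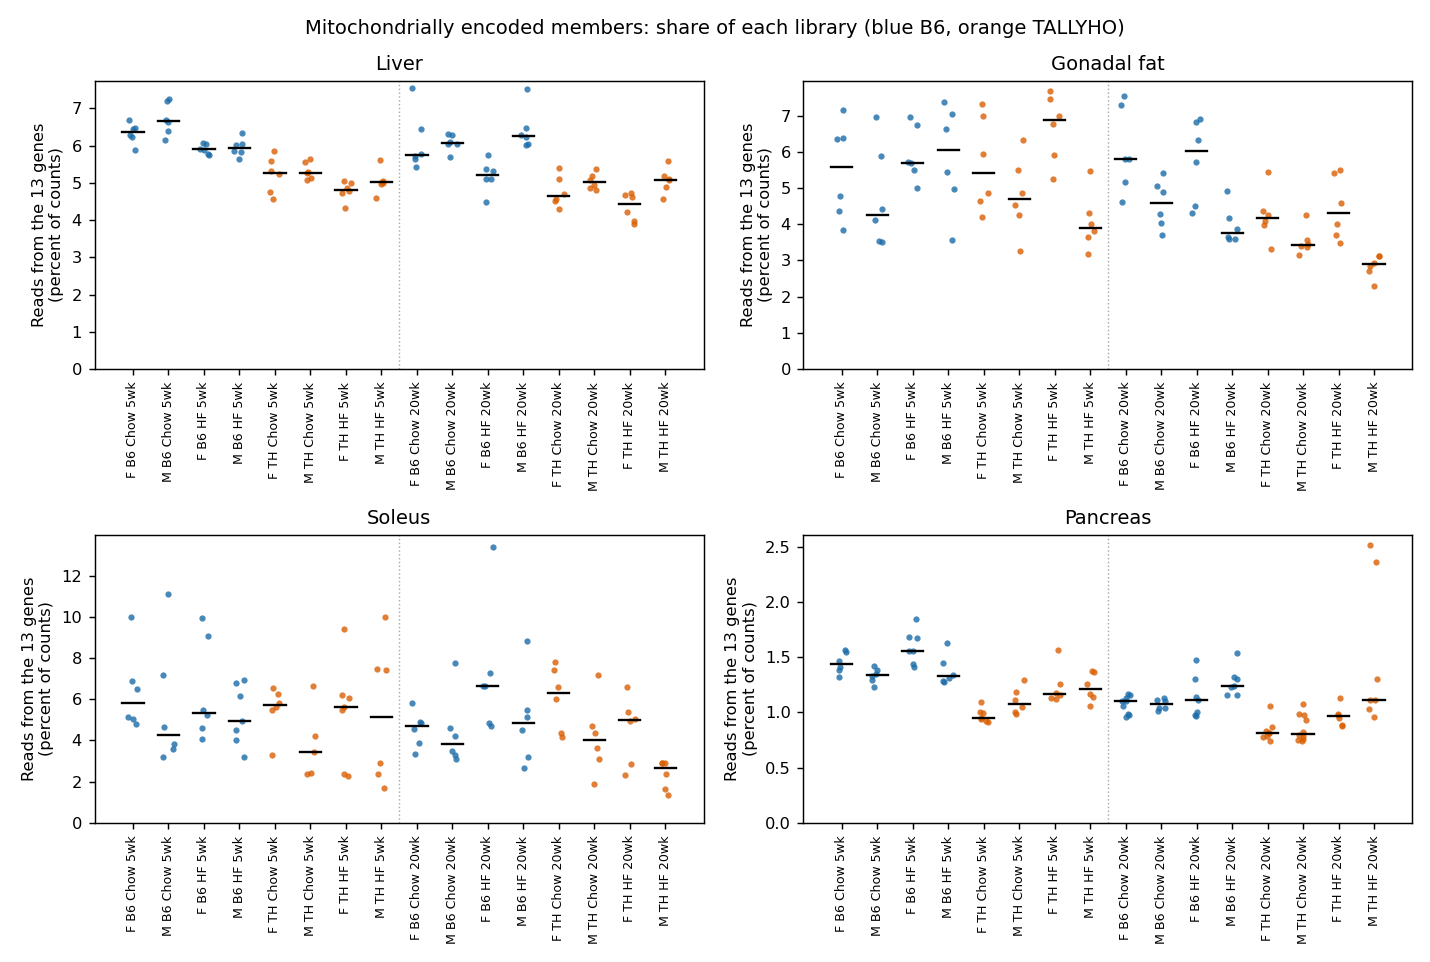
Share of all counts taken by the 13 mitochondrial genes, in percent, for each library in each of the 64 groups, 1 panel per tissue, with bars at the group medians. Liver values run from 3.90% to 7.55% and lie lower in TH than in B6 on chow, whereas soleus runs from 1.37% to 13.4% within and between groups.

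Sex was compared as male against female on chow at 20 weeks over both strains. In liver the sexes overlapped for every member (1.97% of all genes did not overlap), but the mitochondrial genes differed. There 12 of the 13 were higher in males and none was lower, while 12 nuclear members were higher and 21 lower (44.5% of genes called, 20.3% higher and 24.2% lower), with medians of 0.39 and -0.05. mt-Nd2 ranged from 2609 to 4253 CPM (median 3215) in males and from 1617 to 3181 (median 2042) in females (0.64 ± 0.06). Cytochrome b, mt-Cytb, ranged from 3755 to 5341 CPM (median 4334) against 2167 to 4425 (median 3046), a change of 0.62.

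The nuclear members that were lower in male liver included Ndufs7 (-0.46 ± 0.08), Ndufb7 (-0.40), Ndufa7 (-0.38), Ndufa11 (-0.34) and Atp5d (-0.31). With the GC slope as a covariate all 5 calls were lost, and Ndufa11 and Atp5d turned to 0.02 and 0.05. The slopes were -0.153 to 0.10 (median -0.107) in male and -0.011 to 0.184 (median 0.095) in female livers. This trend limits the mitochondrial values of the sex comparison too, as those genes have a GC content of 31.9% to 41.1%. In the 10 livers with the lowest slopes, drawn from 5 groups, they took a median of 6.16% of counts. In the 10 with the highest slopes, drawn from 6 groups, they took 5.08%.

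Outside liver, sex differences were few. In fat Cox6b2 (-1.13 ± 0.27, edgeR adjusted p = 0.00167), mt-Atp6 (-0.44) and mt-Co3 (-0.41 ± 0.14) were lower in males (14.6% of genes called, 5.93% lower), and Cox6b2 ranged from 1.59 to 2.53 CPM in males and 2.32 to 6.42 in females. The count in fat was 16 with the neighbouring tissue scores as covariates. edgeR called 0 members in soleus (1.71% of genes) and 0 in pancreas (0.711%), with 13 and 6 at an unadjusted p under 0.05, and the DESeq2 Wald test called 1 in soleus.

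Strain and sex interacted for 2 members in liver, Sdha (-0.34 ± 0.10, edgeR adjusted p = 0.0302) and Atp5b (-0.25 ± 0.07, edgeR adjusted p = 0.0139), where the strain difference of males was more negative than that of females (4.88% of genes called, 3.24% lower). In pancreas it was Atp5f1 (-0.40 ± 0.11) and Uqcrc2 (-0.39 ± 0.11), with 1.46% called, 0.741% lower. With only the groups compared, 0 were called in either tissue, and in pancreas also 0 without the filter and with the GC slope. In fat and soleus edgeR called 0 (1.48% and 0.0742% of genes), with 3 and 0 at an unadjusted p under 0.05.

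Age was compared as 20 against 5 weeks on chow over both strains and sexes. In liver 42 of 79 nuclear and 7 mitochondrial members were lower at 20 weeks and none was higher (21.5% of genes called, 12.2% lower), with medians of -0.11 and -0.14. Cox5a, a nuclear subunit of complex IV, ranged from 64.4 to 98.0 CPM (median 74.8) in 24 mice at 20 weeks and from 73.7 to 117 (median 90.1) in 24 at 5 weeks (-0.24 ± 0.04).

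In soleus the members called for age went both ways. All 4 subunits of complex II were higher at 20 weeks: Sdha by 0.49 ± 0.07 (edgeR adjusted p = 8.37e-09), Sdhd by 0.31 ± 0.06, Sdhb by 0.21 ± 0.09 and Sdhc by 0.19 ± 0.08. Sdha ranged from 708 to 1086 CPM (median 802) in 24 mice at 20 weeks and from 390 to 778 (median 591) in 23 at 5 weeks. Over all nuclear members 11 were higher and 32 lower (48.3% of genes called, 21% higher and 27.3% lower), with a median of -0.15 against -0.06 for all genes, and no mitochondrial gene was called. Besides complex II, 2 members of complex I, 1 of complex III and 4 of complex V were higher, against 13, 4 and 7 lower, and in complex IV 8 were lower and none higher.

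Ndufa1, an accessory subunit of complex I, was the lowest in adjusted p among those that fell in soleus, at 68.6 to 100 CPM (median 77.9) at 20 weeks and 94.7 to 191 (median 109) at 5 weeks (-0.56 ± 0.07, edgeR adjusted p = 5.88e-11). Cox4i2 (-0.74 ± 0.15) and Ndufa4l2 (-0.67 ± 0.12), both known as responsive to oxygen, fell too, as did Atp5mpl (-0.45) and Uqcrb (-0.38). Atp5a1 rose by 0.29. Leaving out each of the 5 TH males on chow at 5 weeks in turn gave 33 to 48 calls, and all 10 of the soleus members named by size for age kept their direction and call with the GC slope as a covariate.

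In fat 17 nuclear and 3 mitochondrial members were lower at 20 weeks and 1 nuclear member, Atp5s, was higher (27.3% called, 13.9% lower and 13.3% higher). The largest falls were in the tissue-restricted isoforms: Cox8b ranged from 0.969 to 22 CPM (median 4.73) at 20 weeks and from 0.549 to 35.7 (median 12.2) at 5 weeks (-1.04 ± 0.29), Cox7a1 changed by -0.80 ± 0.27 and Cox4i2 by -0.72 ± 0.17. Without the deviating libraries 36 members were called, and with the neighbouring tissue scores 35.

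Pancreas was the tissue in which more members rose than fell with age. There 16 nuclear members and 1 mitochondrial member were higher at 20 weeks and 2 lower (30% called, 15.5% higher and 14.5% lower). Cox7a2l ranged from 24.9 to 58.8 CPM (median 39.1) in 33 mice at 20 weeks and from 22.5 to 44.3 (median 27.3) in 25 at 5 weeks (0.47 ± 0.05, edgeR adjusted p = 3.56e-14), and Ndufs7 changed by 0.52 ± 0.07. The c-ring gene Atp5g1 fell by 0.32 ± 0.05, at 19.04 to 31.1 CPM (median 24.8) against 22.8 to 39.8 (median 29.9).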

How the data were processed

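Libraries were stranded poly(A) libraries, per the labels' protocols. Reads were trimmed with Trimmomatic 0.39 and aligned to GRCm39 with HISAT2 2.2.1, and SAMtools, DESeq and DESeq2 are named, per the submitters' processing notes; which program counted reads, with what strand setting and gene models, is not given in the sources used here. The authors deposited raw counts, normalized counts (a signal equal to the counts divided by 1 factor per library) and FPKM equal to those normalized counts divided by 1 constant per gene. Comparisons of FPKM across tissues therefore rest on the authors' factors. Of 56980 identifiers, 52073 had a symbol in the gene name table used. Biotypes and GC content came from GENCODE M21 (longest transcript), and promoters from RefSeq on GRCm38.p6.

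Counts of each tissue were fitted separately in R 4.3.3 with edgeR 4.0.16: genes passing filterByExpr (minimum count 10, minimum total 15), TMM factors, 1 coefficient for each of 16 groups, quasi-likelihood tests of 9 contrasts and Benjamini-Hochberg adjustment over all genes of the tissue, called below 0.05. The contrasts average groups equally. The fit was run on simulated counts for liver alone, with the same dispersion for every gene. The other tissues and the GC trend were not simulated. Mice are the replicates, and no 2 libraries of the same group held identical counts. Alternatives were RLE factors, no filter, the replicate number as a block, the GC slope as a covariate, mitochondrial reads left out of library sizes, deviating libraries left out, neighbouring tissue scores (fat), only the groups compared, each replicate left out in the group of 5, and DESeq2 1.42.0.

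Members named are the isoform sets, complex II and the mitochondrial genes, and in each tissue and contrast up to 5 called members with the largest rise and 5 with the largest fall at a mean log2 CPM of at least 1. The other members named for overlap, for both ages or for 6 or more of 8 comparisons were picked after their values were seen. The members and all lists were chosen with earlier results of these data known. The values of 1 member are not reported here, though the counts of members include it.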

Additional observations from a re-analysis of the deposited data

Results flagged for a closer look

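A sample stood far from the rest of its group in 15 of 128 tests of the summed shares, of which chance alone flags about 1 in 20. For the 13 mitochondrial genes, the share of counts was 13.4% in replicate 1 of the B6 females on HF at 20 weeks in soleus (group median 6.64%), 7.76% in replicate 6 of the B6 males on chow at 20 weeks in soleus (3.85%) and 3.29% in replicate 2 of the TH females on chow at 5 weeks in soleus (5.72%). It was 7.51% in replicate 6 of the B6 males on HF at 20 weeks in liver (6.25%) and 4.27% in replicate 3 of the TH males on chow at 20 weeks in fat (3.44%). In pancreas it was 1.06% in replicate 2 of the TH females on chow at 20 weeks (0.813%) and 1.57% in replicate 2 of the TH females on HF at 5 weeks (1.17%).

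For the nuclear members, the share was 2.14% in replicate 3 of the B6 males on HF at 20 weeks in fat (group median 0.911%), 1.05% in replicate 3 of the TH males on chow at 20 weeks in fat (0.784%), 1.16% in replicate 1 of the B6 females on chow at 20 weeks in liver (0.931%) and 0.876% in replicate 6 of the B6 males on chow at 20 weeks in liver (0.783%). It was 0.179% in replicate 8 of the TH females on chow at 20 weeks in pancreas (0.138%) and 0.224% in replicate 4 of the TH males on HF at 5 weeks in pancreas (0.186%). In soleus it was 2.99% in replicate 5 of the B6 females on chow at 5 weeks (3.58%) and 3.1% in replicate 6 of the B6 males on chow at 20 weeks (4.09%). The last of these mice and replicate 3 of the TH males in fat stood apart in both shares.

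Interaction tests with edgeR called members whose response differed between strains or sexes. The diet response differed between strains for 1 member in liver, 82 in soleus and 2 in pancreas, and the strain difference differed between sexes for 2 members in liver and 2 in pancreas. The values are log2 differences, the change on HF in TH minus that in B6 for diet, and TH minus B6 in males less the same in females for sex. In liver these were Ndufa8 (0.31) for diet, and Sdha (-0.34) and Atp5b (-0.25) for sex. In pancreas they were Atp5mpl (0.55) and Ndufa4 (0.34) for diet, and Atp5f1 (-0.4) and Uqcrc2 (-0.39) for sex. In soleus the largest were Ndufs8 (1.14), Ndufa7 (1.06), Atp5d (1.03), Ndufa11 (0.98) and Uqcrq (0.97) in the higher direction, and mt-Atp8 (-2.28), mt-Nd4l (-1.55), mt-Atp6 (-1.51), mt-Nd4 (-1.49) and mt-Co2 (-1.1) in the lower, and all 5 of the latter changed sign with the GC slope as a covariate.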

How the results depend on the processing

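Of 143 named changes, 95 were called in the same direction under every setting run. Over all settings, 1097 values kept direction and call, 78 lost the call and 11 reversed, all 11 with the GC slope as a covariate; the cause was not tested. The reversed values were, in liver for sex, Ndufa11 0.024 and Atp5d 0.054; in soleus for diet in TH, mt-Nd4l 0.99, mt-Nd4 0.78, mt-Atp6 0.73 and mt-Nd3 0.14; and in soleus for the diet difference between strains, mt-Atp8 1.44, mt-Nd4l 1.3, mt-Nd4 0.88, mt-Atp6 0.74 and mt-Co2 0.43. The GC slope also moved the members called in soleus from 80 to 33 for diet in TH, from 82 to 9 for its difference between strains, from 2 to 17 for strain at 5 weeks, from 1 to 9 for diet at 5 weeks and from 0 to 3 for sex; in fat from 3 to 8 for sex; in liver from 1 to 0 for the diet difference between strains; and in pancreas from 1 to 4 for diet in B6, from 7 to 2 for diet in TH, from 2 to 1 for its difference between strains and from 2 to 0 for strain by sex. With only the groups compared, liver gave 28 in place of 46 for diet in B6 and 0 in place of 1 and of 2 for the interactions, fat 9 for sex, soleus 5 for sex, and pancreas 4 for diet in TH and 0 for both interactions. Without the filter, liver gave 0 for the diet difference between strains, fat 0 for diet in B6 and 1 for sex, and pancreas 0 for diet in B6, 1 and 0 for the interactions and 2 in place of 7 for diet at 5 weeks. Without the deviating libraries, fat gave 47 in place of 30 for strain at 20 weeks, 0 for diet in B6, 5 for sex and 36 in place of 21 for age, soleus 2 for diet at 5 weeks, and pancreas 1 for strain by sex. With neighbouring tissue scores, fat gave 0 for diet in B6, 16 for sex and 35 for age. RLE factors gave 4 in soleus for strain at 5 weeks and 1 in pancreas for strain by sex, and leaving mitochondrial reads out of library sizes gave 4 in soleus for strain at 5 weeks. The DESeq2 Wald test gave 3 in fat for diet in B6 and, in soleus, 4 for strain at 5 weeks, 2 for diet at 5 weeks and 1 for sex. Leaving out each of the 5 TH males on chow at 5 weeks gave 2 to 5 in soleus for strain at 5 weeks, 1 to 3 for diet at 5 weeks and 33 to 48 for age. Replicate numbers did not pair the samples: deviations of same-numbered libraries had median correlations of 0.002 to 0.010 in the 4 tissues. With the replicate block, fat gave 0 for diet in B6, and pancreas gave 2 for diet in B6, 1 for diet in TH, 1 for its difference between strains and 0 for strain by sex, while the other counts stayed within 1.5 times. From raw counts the soleus shares of Cox7a1 and Cox8b were 53.8% and 86.8% in place of 67.3% and 91.9%. At the depths of these libraries Cox6a2, Cox8b, Cox4i2 and Cox6b2 passed the low-count filter in fat and soleus alone.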
